A study of Rattus norvegicus with 2 samples.

Results

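The Dlk1-Dio3 imprinted cluster is a run of microRNA (miRNA) genes on rat chromosome 6, and its miRNAs are described here in rat tongue, in a carcinogen-induced squamous carcinoma and in normal tissue. Members were taken by name: every rat miRNA on the array, star forms left out, that carries the number of a gene of this cluster, which gave 42 of the 350 miRNAs. The rule uses no measured value. The array labelled tumour held Cy3-labelled RNA of tongue carcinoma from male Sprague-Dawley rats given the carcinogen 4NQO at 0.02 g/l, and the normal-labelled array held RNA of tongue from male Sprague-Dawley rats given distilled water. The rats, 20 per arm, were 6 to 7 weeks old at allocation, tissue was taken at the end of week 36, and RNA came from 7 tumours and 7 normal tissues. The labels do not state whether an array held RNA of 1 animal or a pool. With 1 array per group there is no replicate check and no test between groups, and every SD below is the spread of repeated spots of 1 probe on 1 array.

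MiRNAs of this cluster are cut from long RNAs transcribed from the maternally inherited chromosome, together with the non-coding RNA Meg3, while the protein-coding genes Dlk1, Rtl1 and Dio3 are expressed from the paternal one. The cluster is most active in the embryo, the placenta and the brain, and it is also known from muscle stem cells. A miRNA guides the silencing of messenger RNAs through its seed, bases 2 to 8 of the mature strand. Several miRNAs of the cluster lie opposite the Rtl1 gene, are fully complementary to its RNA and direct its cleavage.

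The finding turns on 6 miRNAs, so their sequences come first. These 6 were the cluster miRNAs detected on at least 1 array, and detection of a probe required over 50% of its spots to be flagged by the scanner software as well above background. RefSeq mature sequences (rat assembly GRCr8) are shown from 5′ to 3′ with the seed in capitals. They were matched through the probes, whose full length had to be complementary to the mature strand. By this rule 37 of the 42 members matched, and miR-136, miR-370, miR-377, miR-381 and miR-543 did not. The probes of miR-370 and miR-543 had 1 mismatch to the nearest RefSeq strand of their number, and those of miR-377 had 2.
miR-127-3p: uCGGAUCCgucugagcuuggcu
miR-434-3p: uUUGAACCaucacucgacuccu
miR-299a-5p: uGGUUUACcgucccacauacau
miR-300-3p: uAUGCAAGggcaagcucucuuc
miR-494-3p: uGAAACAUacacgggaaaccucu
By these matches miR-127-3p lies at chr6:134328510-134328531, miR-434-3p at chr6:134330451-134330472, miR-299a-5p at chr6:134545075-134545096, miR-494-3p at chr6:134550163-134550185 and miR-300-3p at chr6:134559968-134559989, all on the plus strand of GRCr8. No pair of the 37 matched members shared a seed, so each of the 5 stands for a seed of its own within the set. Among all RefSeq rat miRNAs the seed of miR-299a-5p recurred in miR-299b-5p, and the seeds of the other 4 did not recur.

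Each member was read by 2 to 4 probes of different lengths, and length bears on the values below. The 6 detected miRNAs had 2 probes each, shown with the bases that the longer probe adds in capitals.
miR-127 probe of 17 bases: agccaagctcagacgga
miR-127 probe of 18 bases: agccaagctcagacggaT
miR-434 probe of 17 bases: aggagtcgagtgatggt
miR-434 probe of 18 bases: aggagtcgagtgatggtT
miR-136 probe of 22 bases: tccatcatcaaaacaaatggag
miR-136 probe of 23 bases: tccatcatcaaaacaaatggagT
miR-299 probe of 19 bases: atgtatgtgggacggtaaa
miR-299 probe of 20 bases: atgtatgtgggacggtaaaC
miR-300-3p probe of 17 bases: gaagagagcttgccctt
miR-300-3p probe of 18 bases: gaagagagcttgcccttG
miR-494 probe of 13 bases: aggtttcccgtgt
miR-494 probe of 14 bases: aggtttcccgtgtA
Both probes of miR-299 reached their closest other RefSeq miRNA, miR-299b-5p, with 2 mismatched or overhanging bases, so signal of the pair cannot be told apart with certainty. Probes of the other detected members were farther from any second miRNA, with at least 3 such bases for miR-494, 4 for miR-300-3p and 6 for miR-434 and miR-127. The closest to the miR-300-3p probes were miR-381-3p and miR-539-3p, and signal from these was not tested.

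Some facts on the arrays bear on the members' values. Each array carried 938 miRNA probes on 7000 spots, and the tumour-labelled array was brighter: among the 140 probes that both arrays detected, the 75th percentile was 525.6 intensity units against 277.5, a ratio of 1.89. Scaled values below are divided by these percentiles, and unscaled values are given beside them because the division decides several results. Skeletal muscle markers were far brighter on the tumour-labelled array: 5 of 7 were detected on both arrays, with miR-208 and miR-499 detected on neither, and the list's summed signal was 10176 units against 876. All 7 squamous epithelium markers were detected on both arrays, with sums of 2068 and 1855 units, but their scaled log2 ratios ran from -1.26 to -0.24 with a median of -0.61, and their share of all signal was 5.87% against 9.72%. Some directions ran against what is usual for the labels. MiR-21 and miR-31, often raised in carcinomas of the mouth, were 9.60-fold and 15.2-fold lower on the tumour-labelled array after scaling, and the muscle miRNA miR-1 was 13.2-fold higher. These 3 miRNAs, named after their values were seen, had the same sign without scaling. Whether the arrays carry the right labels was not tested, so each direction below is that of the labelled arrays, not of the tissues. In such bulk RNA, fewer cells of a type and less RNA per cell cannot be told apart.

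Most of the cluster was below detection on both arrays. Of the 42 members, 6 were detected on the tumour-labelled array, or 14.3% against 29.7% of all 350 miRNAs. On the normal-labelled array 1 was detected, or 2.38% against 25.1% of all. All 6 were detected on the tumour-labelled array, 5 of them on that array alone, or 11.9% of the members against 5.43% of all miRNAs. No member was detected on the normal-labelled array alone, where 0.857% of all miRNAs were. Only miR-494 was detected on both arrays, as were 24.3% of all miRNAs. Put the other way, 5 of the 19 miRNAs detected on the tumour-labelled array alone were members, where members were 42 of all 350. When a single scaled limit was set for both arrays, 3 members were detected on the tumour-labelled array, or 3 of 42 against 23.7% of all miRNAs. Of these, miR-494 was detected on both arrays, and miR-127 and miR-299 on the tumour-labelled array alone. The count of 5 on that array alone thus depended on the limit.

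**Figure D1:**
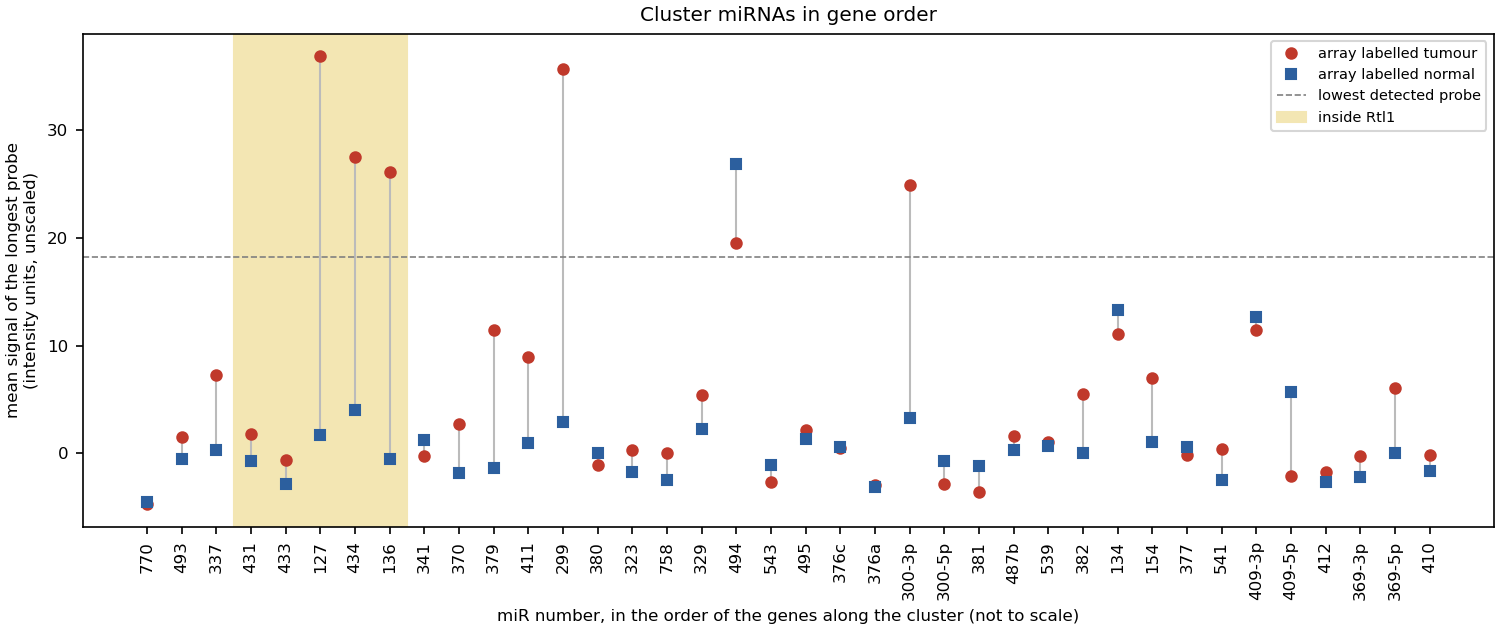
Mean signal of the longest probe of each of the 38 members whose hairpin gene was found in RefSeq. Values are in intensity units without scaling, with the tumour-labelled array as circles and the normal-labelled array as squares. Genes are in their order along the cluster, not to scale, the shaded band marks those inside Rtl1, and the dashed line at 18.3 units is the lowest signal of a detected probe; heights of different miRNAs depend on their probes and are not comparable with each other. The circles of miR-127, miR-434, miR-136, miR-299 and miR-300-3p stand above the line with their squares near 0, while miR-494 has both marks above it.

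The detected members lay inside Rtl1 and, with undetected members between them, after it. Hairpin genes were found in RefSeq for 38 members, from 35 genes, and all 38 members lay between Dlk1 and Dio3. The members without a matched mature strand, miR-136 among them, were placed by name alone. The counts by position cover these 38. Left out are miR-376b-3p, miR-376b-5p, miR-485 and miR-540, for which only the mature strand was found, among the other members on chromosome 6. None of them was detected on either array. Of the 5 members inside Rtl1, 3 were detected on the tumour-labelled array: miR-127, miR-434 and miR-136, which are neighbours there. The other 2 of that stretch, miR-431 and miR-433, had probe means between -2.22 and 1.78 units on the tumour-labelled array and between -2.82 and -0.67 on the normal-labelled array, at the level of the negative controls. After Rtl1 3 of 30 members were detected, namely miR-299, miR-494 and miR-300-3p, and before Rtl1 0 of 3 were. Counts this small describe the arrays and were not tested.

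MiR-127 is one of the miRNAs that lie opposite Rtl1. Its 18-base probe had a mean of 36.9 ± 2.70 units (SD, 10 spots) on the tumour-labelled array and 1.71 ± 1.77 (SD, 9 spots) on the normal-labelled array. The lowest spot of the former, 31.3, stood above the highest of the latter, 4.04, so the spots of this probe did not overlap. All 10 spots on the tumour-labelled array were well above background and none on the other was. The 17-base probe, which lacks 1 base at its end, was not detected on either array, with means of 8.80 ± 2.95 and 0.30 ± 3.22 units (SD, 10 spots each), and its spots overlapped.

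MiR-434 and miR-136 followed the same course. For miR-434, the 18-base probe ran from 22.5 to 34.0 units on the tumour-labelled array (mean 27.5 ± 3.92, SD, 10 spots) and from -0.54 to 9.87 on the normal-labelled array (mean 4.07 ± 3.33, SD, 10 spots). The 23-base probe of miR-136 ran from 19.8 to 31.6 units (mean 26.1 ± 4.27, SD, 10 spots) and from -4.34 to 5.49 (mean -0.49 ± 2.99, SD, 10 spots). Both were thus detected in every spot of the tumour-labelled array and in no spot of the other. Their shorter probes, of 17 and 22 bases, were not detected on either array.

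In the stretch after Rtl1, miR-299 and miR-300-3p showed this pattern as well. The 20-base probe of miR-299 had a mean of 35.6 ± 2.28 units (SD, 9 spots) on the tumour-labelled array against 2.93 ± 2.72 (SD, 10 spots). For miR-300-3p the 18-base probe had a mean of 24.9 ± 2.99 units (SD, 9 spots) against 3.31 ± 3.01 (SD, 10 spots). Neither probe's spots overlapped between the arrays: the lowest were 32.0 and 21.7 units on the tumour-labelled array, and the highest on the other were 8.43 and 8.56. The opposite arm of the same hairpin, miR-300-5p, was detected on neither array, and its 4 probes had means from -2.83 to 5.91 units on the tumour-labelled array and from -2.24 to 0.04 on the normal-labelled array. The 4 probes named miR-381 on the array, of 11 to 14 bases, are complementary over their whole length to miR-300-3p, and none of their spots was well above background on either array.

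**Figure D2:**
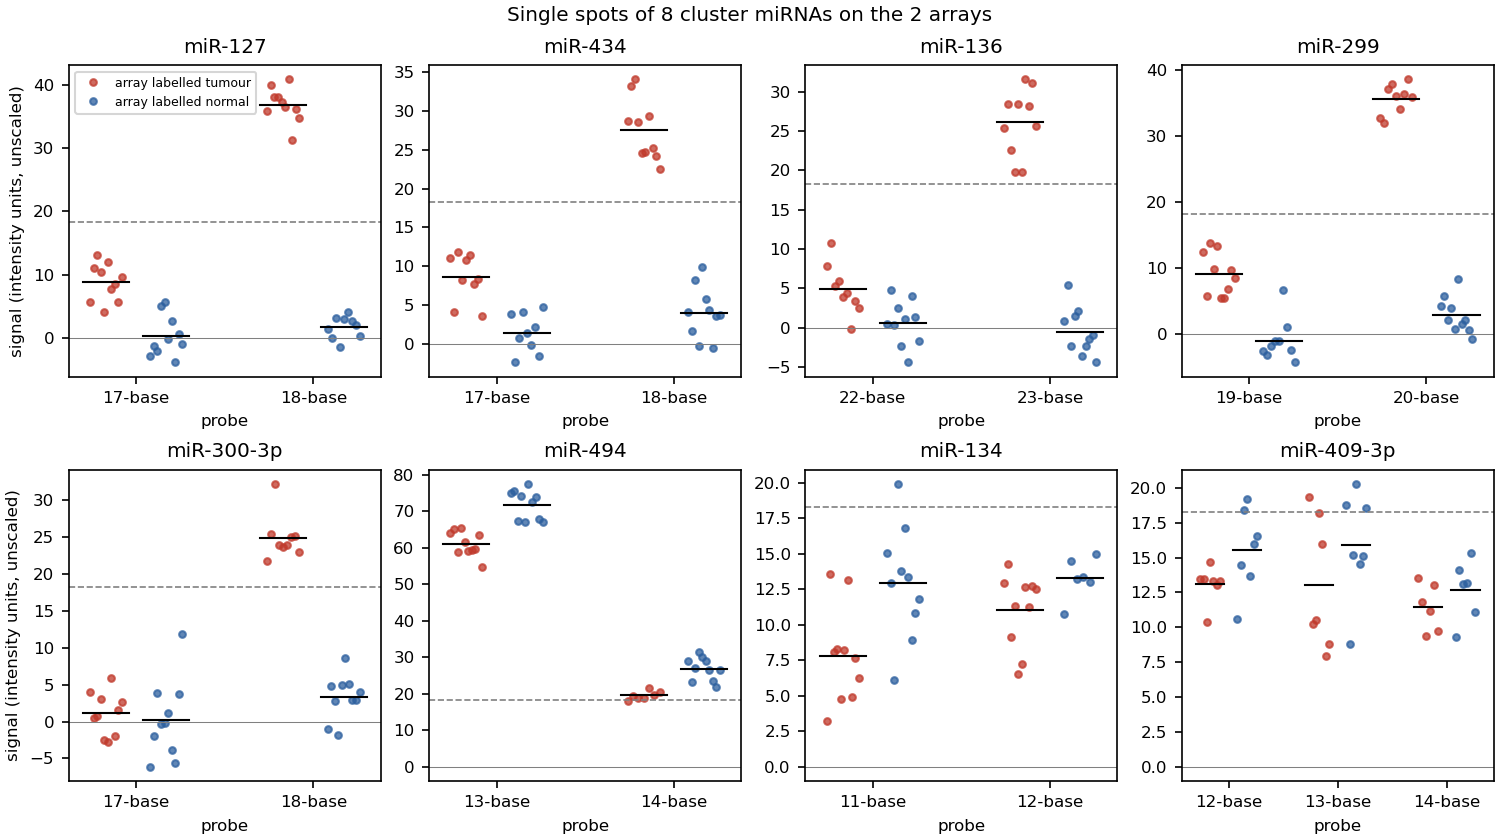
Single spots of 8 cluster miRNAs by probe length, in intensity units without scaling, with red points for the tumour-labelled array, blue points for the normal-labelled array, black bars at the means and a dashed line at 18.3 units, the lowest signal of a detected probe. In the first 5 panels the longest probe separates the arrays, with the tumour points above the line and the normal points below 10 units. MiR-494, miR-134 and miR-409-3p have signal on both arrays, with the means of the normal-labelled array higher.

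How large these 5 differences are cannot be read from the arrays, because the normal-labelled array gives only an upper limit. Each bound divides the scaled level on the tumour-labelled array by the lowest scaled signal that counted as detected on the normal-labelled array. On that footing miR-127 was at least 1.07-fold higher and miR-299 at least 1.03-fold, and for miR-434, miR-136 and miR-300-3p the bound was under 1, so no fold is given. Without scaling the bounds were at least 2.02-fold for miR-127, 1.96-fold for miR-299, 1.51-fold for miR-434, 1.43-fold for miR-136 and 1.36-fold for miR-300-3p. For these 5 the data thus show a difference in detection, each array at its own limit. The lowest detected scaled signal was 0.0347 on the tumour-labelled array and 0.0657 on the normal-labelled array. With 1 scaled limit for both arrays, miR-434, miR-136 and miR-300-3p were detected on neither. The scaled bounds depended on the setting: all 5 were above 1 with the 75th percentile over all probes, from 1.01 to 1.49, and against the negative control limit, from 1.22 to 1.81, while none was with normexp or where all spots had to be well above background.

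MiR-494 was the 1 member measured on both arrays, and it went the other way. Its 13-base probe had 61.1 ± 3.38 units (SD, 10 spots) on the tumour-labelled array and 71.8 ± 4.09 (SD, 10 spots) on the normal-labelled array. Its 14-base probe had 19.6 ± 1.16 (SD, 7 spots) and 26.8 ± 3.19 (SD, 10 spots). For both probes the lowest spot of the normal-labelled array, 67.0 and 21.9 units, stood above the highest of the tumour-labelled array, 65.3 and 21.5. Of the 7 spots of the 14-base probe on the tumour-labelled array, 4 were well above background, so that probe was detected only narrowly.

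After scaling miR-494 was 2.40-fold lower on the tumour-labelled array, a log2 ratio of -1.27 with a spot SE of 0.04, from scaled levels of 0.0658 and 0.158. The 13-base probe alone gave -1.15 and the 14-base probe -1.38 on the log2 scale. It ranked the 10th lowest of the 85 miRNAs measured on both arrays, whose median was -0.46; the rule of 2-fold called 22.4% of the 85 lower and 12.9% higher, and of the members it called 1 lower and 0 higher. Without scaling its log2 ratio was -0.34, under 2-fold, where the median of the 85 was 0.46. Its sign was the same in each scaling tried, but whether it passed 2-fold was not.

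**Figure D3:**
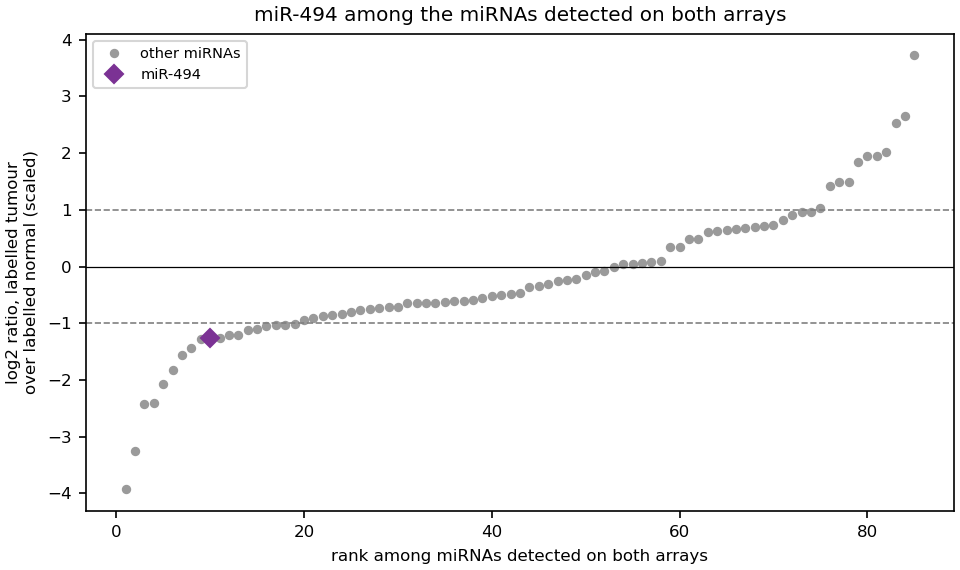
Scaled log2 ratios of the 85 miRNAs detected on both arrays, labelled tumour over labelled normal, in order from lowest to highest, with dashed lines at 2-fold either way. MiR-494, the diamond, is the 10th lowest at -1.27 and the only cluster miRNA among the 85.

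As a share of all miRNA signal the cluster was faint on both arrays. Summed over the 42 members the signal was 188.2 units of 35251 on the tumour-labelled array, or 0.534%, and 90.3 of 19075 on the normal-labelled array, or 0.474%. These shares need no scaling between arrays, but they depend on probe brightness, and members at background add noise because means below 0 were set to 0. MiR-494 alone gave 0.114% and 0.259%. Over all 42 members the share was 1.13-fold higher on the tumour-labelled array. Without miR-494, the 1 member measured as lower there, the other 41 gave 0.419% and 0.215%, or 1.95-fold more. That split follows the values themselves, since 5 of the 41 were detected on the tumour-labelled array alone, and is no separate result. With normexp background correction, whose offset lifts dim probes, the order of the members' shares turned, to 4.79% and 6.46%.

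Below the detection limit lay 36 members with 99 probes. Among them were miR-370, miR-377, miR-381 and miR-543, whose probes fully matched no RefSeq mature strand of their own number. Their probe means ran from -4.73 to 13.1 units on the tumour-labelled array, with a median of -0.68, and from -5.38 to 15.9 on the normal-labelled array, with a median of -1.10. Negative control spots had means of 0.61 ± 3.04 and 1.67 ± 3.02 units (SD over spots), so most of these probes were at background. Of the 99 probes 58, or 58.6%, had a higher unscaled mean on the tumour-labelled array, near the 54.0% of all 754 probes detected on neither array. The 36 as a whole thus did not stand apart from other dim miRNAs by this count.

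A count was made of probes whose spots on 1 array all stood above every spot on the other, without scaling. Higher on the tumour-labelled array were 8 of the 111 member probes, or 7.21% against 14.6% of all 938, and they belonged to 8 members, or 19.0% against 24.3% of all miRNAs. Besides the 5 miRNAs above, these were miR-379, miR-411 and miR-370. Among probes detected on neither array, 3 of the members' 104 separated this way, or 2.88% against 2.39% of all 754. In the other direction it was 1 of 104, or 0.962% against 0.928%. Shares this near the background are no result about the dim members, and the values that follow are a description. Higher on the normal-labelled array were 3 member probes, or 2.70% against 2.67% of all, namely both of miR-494 and 1 of miR-380, the latter at means of -4.49 and -1.45 units. They belonged to 2 members, or 4.76% against 4.57% of all miRNAs. The members' shares were thus below those of the whole array in 1 direction and near them in the other. These dim members, like miR-134 below, are named after their values were seen.

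MiR-379 belongs to the large group after Rtl1, where its gene follows those of miR-341 and miR-370, and Mef2 is a transcription factor known to drive miR-379 and its neighbours in neurons. Its 16-base probe ran from 6.59 to 14.8 units on the tumour-labelled array (mean 11.4 ± 2.82, SD, 10 spots) and from -5.13 to 2.84 on the normal-labelled array (mean -1.33 ± 2.58, SD, 9 spots). Its neighbour miR-411 had an 18-base probe with a mean of 8.97 ± 1.90 units (SD, 10 spots) against 0.94 ± 2.66 (SD, 9 spots). No spot of either was well above background, so these are differences below the detection limit. The 16-base probe of miR-370 had means of 2.77 ± 2.08 (SD, 4 spots) and -1.76 ± 1.93 units (SD, 5 spots), within the range of the negative controls.

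MiR-134, which limits the size of dendritic spines in neurons, and miR-409-3p had some signal on both arrays. For miR-409-3p, the 1 undetected member with at least 25% of a probe's spots well above background, the 13-base probe had 3 of 7 such spots on the normal-labelled array and 1 of 7 on the tumour-labelled array. The spots overlapped, running from 8.83 to 20.3 units on the normal-labelled array and from 7.93 to 19.4 on the other. The 12-base probe of miR-134 had a mean of 13.3 ± 1.47 units (SD, 6 spots) on the normal-labelled array and 11.1 ± 2.59 (SD, 10 spots) on the tumour-labelled array, with overlapping spots. The scanner software's own gene flag counted miR-409-3p as detected on both arrays and miR-134 on the normal-labelled array, which made 7 members on the tumour-labelled array against 36% of all miRNAs, and 3 on the other against 31.4%. A limit at the mean plus 3 SD of the negative controls gave 9 members against 38.3% of all, and 3 against 31.7%.
RefSeq gives their mature strands as follows, again with the seed in capitals, to set beside those of the 6.
miR-134-5p: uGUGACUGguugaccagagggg
miR-409a-3p: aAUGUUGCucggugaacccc

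**Figure D4:**
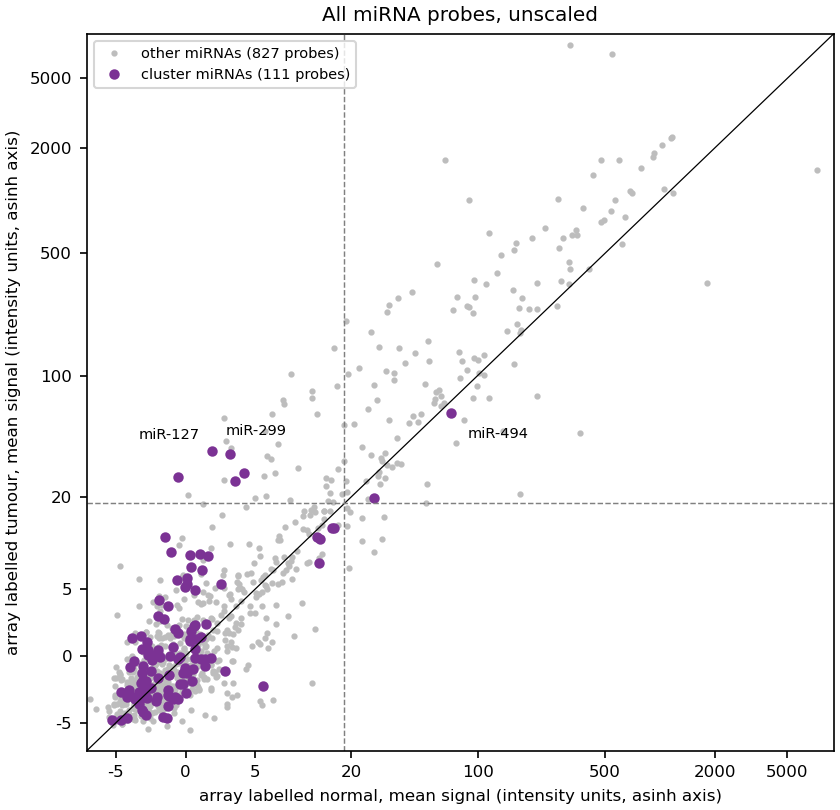
Mean signal of each of the 938 miRNA probes on the normal-labelled array (horizontal) and the tumour-labelled array (vertical), without scaling, on axes of the inverse hyperbolic sine, with the line of equal signal and dashed lines at the lowest detected signal of each array. Cluster probes, in purple, lie mostly near 0, with the 5 probes detected on the tumour-labelled array alone at the upper left and both miR-494 probes just below the line of equal signal.

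Probe length is described here for members set apart by their values, so it is no separate result. The 5 miRNAs detected on the tumour-labelled array alone were read by longest probes of 18 to 23 bases. MiR-494, miR-409-3p and miR-134, the 3 members above the negative control limit on both arrays, had higher unscaled means on the normal-labelled array and were read by probes of 11 to 14 bases. For miR-409-3p and miR-134 the spots of the arrays overlapped. Short probes of other, undetected members went in both directions. Over the whole array the longest probe had under 15 bases for 3 of the 85 miRNAs measured on both arrays. The same held for 0 of the 19 detected on the tumour-labelled array alone. It held for 1 of the 3 detected on the normal-labelled array alone and 38 of the 243 detected on neither. Where only some probes of a miRNA were detected, the undetected ones were all shorter than the detected ones, in 33 of 33 miRNAs on the tumour-labelled array and 27 of 27 on the normal-labelled array. In miR-494, whose probes were both detected, the shorter probe was the brighter on each array. The part of probe length in these results was not tested.

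Other miRNAs of imprinted loci gave no detected signal. The array held 6 star forms of members, made from the opposite arms of their hairpins (miR-136*, miR-323*, miR-376a*, miR-379*, miR-382* and miR-543*), and 0 of 6 were detected on either array. MiR-673, whose gene lies between those of the members miR-770 and miR-493, was not detected either. From other imprinted loci, 0 of 8 were detected on either array, where 29.7% and 25.1% of all 350 miRNAs were. Among the 8 were miR-483 of the Igf2 gene and miR-335 of Mest. The sum over the 8 was 29.0 units on the tumour-labelled array and 30.7 on the normal-labelled array, or 0.0822% of all signal against 0.161%. Probe means of miR-483 and miR-296* lay above the negative control limit on both arrays, and of miR-466b on the normal-labelled array.

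Markers of neuron and glia, muscle and mesenchyme were read on the same arrays. Of 13 neuron and glia miRNAs, miR-128 and miR-338 were detected, both on the tumour-labelled array alone. The list's sum was 120.5 units there against 38.8, or 0.342% of all signal against 0.203%. The defining neuronal miRNAs miR-124 and miR-9 were detected on neither array. Muscle miRNAs, as given above, were also brighter on the tumour-labelled array, with scaled log2 ratios from 0.91 to 3.72 over the 5 measured. The 4 measured mesenchyme miRNAs ran from -1.56 to 0.82 with a median of -1.02. Their list's summed signal, unscaled, was 746 units on the tumour-labelled array and 517 on the other. As a share of all signal it was lower on the tumour-labelled array, 2.12% against 2.71%. The part of these cell types in the cluster's signal was not tested.

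Across the settings tried, miR-494 was lower on the tumour-labelled array in each, with log2 ratios from -1.42 to -0.34. It passed 2-fold in the reported setting and in 10 of the 15 alternatives that gave it a value.

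**Figure D5:**
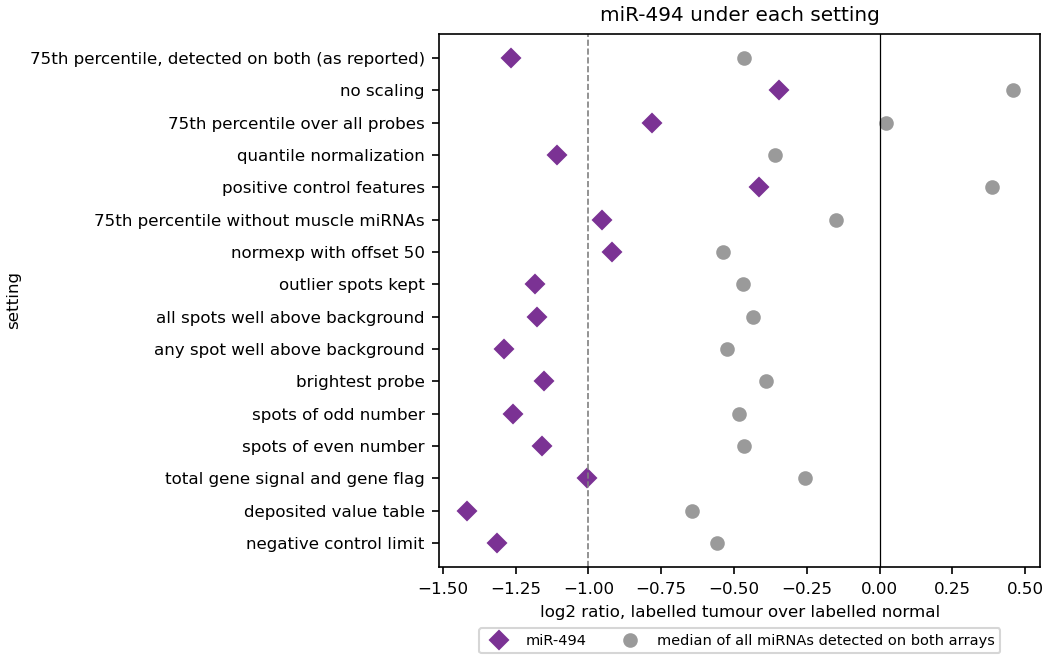
Log2 ratio of miR-494, labelled tumour over labelled normal, under each setting (diamonds), beside the median of all miRNAs measured on both arrays in that setting (circles), with a dashed line at 2-fold lower. The diamonds lie left of the circles throughout, and the settings without scaling or on positive control features move both to the right.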

How the data were processed

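Per the file headers, the deposited intensity of each spot was made by the authors with Agilent Feature Extraction 10.5.1.1, with spatial detrending on and background correction off; no step between arrays is named. The deposited flags, scored 0 or 1, mark outlier spots and spots well above background. The value table equals the software's total gene signal, with values below 1 set to 1. The labels describe a labelling kit for messenger RNA and none for miRNA. Values are brightness, not counts, and the number of arrays limits the precision.

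Unmarked spots were averaged per probe (31 and 43 of the members' 840 spots were left out), divided by the 75th percentile over probes detected on both arrays, and put on the log2 scale. A log2 ratio is the mean over probes detected on both arrays. A call is a rule of size, 2-fold, not a test. Each member detected on an array is named with its values, as is each with at least 25% of a probe's spots well above background; the others are given by ranges. The steps were tested on simulated data. Ratios and bounds were scored there after taking out the median shift of unchanged miRNAs, so the scaling itself was not tested. limma 3.58.1 made the normexp alternative, with R 4.3.3; the rest ran in Python 3.11.15. The members and lists were chosen with earlier results of these data known. RefSeq hairpin genes placed 38 members on GRCr8. The array design refers to rn4.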

Additional observations from a re-analysis of the deposited data

How the results depend on the processing

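Of 17 alternatives, 2 were chosen after seeing the data: detection above a negative control limit (mean plus 3 SD of the control spots) and bounds against that limit. MiR-494 kept its sign in each that gave it a value, but fell under 2-fold, leaving 0 members past it, without scaling (-0.34), with the 75th percentile over all probes (-0.78), on positive control features (-0.42), without the muscle miRNAs in the percentile (-0.95) and with normexp (-0.92). Members with a bound above 1 numbered 2 as reported, 5 without scaling, over all probes, on control features and against the negative control limit, 0 with normexp and with all spots required to be well above background, and 8 where any spot sufficed, since the limit is then near 0. With any spot, 5 members were detected on the normal-labelled array (31.4% of all miRNAs were), 2 on both (28.3% of all) and 2 past 2-fold (36.4% of the 99 measured). The software's gene flag gave 3 and 2 in the first 2 of these counts, against 31.4% and 29.7% of all, and the negative control limit 3, 3 and 3, against 31.7%, 30.6% and 36.4%. With 1 scaled limit 3 members were detected on the tumour-labelled array (23.7% of all). Normexp, whose offset lifts dim members, gave shares of 4.79% and 6.46%. The median log2 ratio of all miRNAs moved by 0.92 without scaling, 0.48 over all probes, 0.85 on control features, 0.31 without muscle miRNAs, and 0.10 with quantile normalization. No paired analysis was possible because each group has 1 array.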
